A study of Mus musculus with 6 samples.

Results

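The Ifit genes (interferon-induced proteins with tetratricopeptide repeats) were described in the mouse line IEC 4.1, labelled as intestinal epithelium, by RNA-seq on the DNBSEQ platform. The members were the rows of the deposited tables named Ifit1, Ifit2, Ifit3, Ifit3b or Ifit1bl2, and all 5 had a row among 14701 genes. Cells exposed for 6 h to IFN gamma at 10 ng/ml (libraries numbered 1, 2 and 4) were compared with untreated Ctrl cells (libraries numbered 2, 3 and 4). Nothing in the labels says whether the 3 libraries of a group came from separate cultures, so the p-values measure only the spread between these libraries, which may be technical. No other allele, agent or genotype is given for either group, and the line stands for itself alone, without neighbouring cell types.

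Ifit proteins are RNA-binding effectors of the antiviral response. Ifit1 holds RNA whose cap lacks ribose methylation and keeps it from translation, and several family members bind subunits of the initiation factor eIF3. Type I interferon switches such genes on through ISGF3, a complex with Stat2 and Irf9 that binds the interferon-stimulated response element (ISRE), whereas IFN gamma acts mainly at the gamma-activated site (GAS) and induces Irf1, which can bind ISRE-like letters.

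Ifit1, Ifit2 and Ifit3 were higher in every IFN gamma library than in any Ctrl library, as were 24.7% of the 11423 genes tested. Ifit3b and Ifit1bl2 were too, but they were read at 10 counts or more in IFN gamma libraries alone, so they could be tested only by being higher there. In bulk RNA, more cells with a transcript and more transcript per cell cannot be told apart. Ifit2, the most abundant in Ctrl cells, was higher by 2.30-fold, Ifit1 by 9.55-fold and Ifit3 by 20.3-fold in depth-scaled totals of counts. Ifit3b and Ifit1bl2 were nearly unread in Ctrl cells and were measured at a mean of 5.47 and 0.497 TPM in IFN gamma cells. Ifit2 made up 33.0% of the family's summed TPM in IFN gamma cells and 74.0% in Ctrl cells.

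The genes lie side by side on chromosome 19. On the RefSeq annotation of GRCm38.p6, Ifit2 spans chr19:34550550-34576534, Ifit3 chr19:34583119-34588982, Ifit3b chr19:34607530-34613403 and Ifit1 chr19:34640889-34650009, all on the plus strand. Ifit1bl2 spans chr19:34617046-34640827 on the minus strand in RefSeq, while the deposited tables list it on the plus strand. The start site of Ifit1bl2 used for its promoter window lies 146 bases from that of Ifit1, and both genes run away from each other. A sixth gene of the cluster, Ifit1bl1, is no member here. Its RefSeq span (chr19:34592888-34662981, minus strand) covers Ifit3b, Ifit1bl2 and Ifit1 whole. On GENCODE M21, however, the Ifit1bl1 transcripts lie within chr19:34592891-34601956, before the start of the Ifit3b transcript at 34607970. No source used here states which annotation was counted or whether the libraries keep strand. Reads of genes that overlap on opposite strands, as on RefSeq, thus cannot be told apart.

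Promoter windows of 300 bases were taken from RefSeq on GRCm38.p6, with 250 bases before and 50 after a start site. They are shown for the 5 genes because the windows shown for Ifit2 and for the other genes differ in ISRE letters. Each is written 5′ to 3′ on its gene's strand, and capitals mark matches to ISRE (GAAANNGAAA, or TTTCNNTTTC on the other strand) and, in Ifit2, to GAS (TTCNNNGAA, which is its own reverse complement).
Ifit1 (plus strand, chr19:34640639-34640938): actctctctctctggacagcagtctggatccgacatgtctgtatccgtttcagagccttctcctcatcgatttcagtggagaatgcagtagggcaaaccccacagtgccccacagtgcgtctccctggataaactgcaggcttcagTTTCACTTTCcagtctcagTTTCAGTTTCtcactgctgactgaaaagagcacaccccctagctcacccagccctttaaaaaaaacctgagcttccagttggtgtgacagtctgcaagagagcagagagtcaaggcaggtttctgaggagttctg
Ifit1bl2 (minus strand, chr19:34640694-34640993): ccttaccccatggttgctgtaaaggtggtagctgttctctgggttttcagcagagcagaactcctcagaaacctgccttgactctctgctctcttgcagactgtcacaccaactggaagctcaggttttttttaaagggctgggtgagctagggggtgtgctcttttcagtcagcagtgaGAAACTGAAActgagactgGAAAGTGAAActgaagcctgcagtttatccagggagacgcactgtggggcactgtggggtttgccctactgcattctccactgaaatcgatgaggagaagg
Ifit3 (plus strand, chr19:34583279-34583578): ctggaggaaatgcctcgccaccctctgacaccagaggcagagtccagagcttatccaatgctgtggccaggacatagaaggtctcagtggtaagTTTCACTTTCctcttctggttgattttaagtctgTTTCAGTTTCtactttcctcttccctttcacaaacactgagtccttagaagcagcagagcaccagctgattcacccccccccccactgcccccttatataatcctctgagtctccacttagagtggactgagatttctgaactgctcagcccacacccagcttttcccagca
Ifit3b (plus strand, chr19:34607707-34608006): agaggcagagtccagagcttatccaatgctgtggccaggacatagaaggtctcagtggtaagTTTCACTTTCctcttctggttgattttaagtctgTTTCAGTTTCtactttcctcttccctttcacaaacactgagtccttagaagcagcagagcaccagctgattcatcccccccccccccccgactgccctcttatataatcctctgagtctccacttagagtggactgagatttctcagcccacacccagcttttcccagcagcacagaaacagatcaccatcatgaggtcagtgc
Ifit2 (plus strand, chr19:34550444-34550743): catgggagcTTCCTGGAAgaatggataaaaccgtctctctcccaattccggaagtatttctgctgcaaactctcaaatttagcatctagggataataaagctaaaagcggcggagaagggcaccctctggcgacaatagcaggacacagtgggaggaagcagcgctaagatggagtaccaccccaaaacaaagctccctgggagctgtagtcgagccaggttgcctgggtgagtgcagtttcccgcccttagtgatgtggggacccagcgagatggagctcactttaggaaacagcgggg

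Ifit1 held TTTCACTTTC and TTTCAGTTTC, with their first bases at -104 and -85 from the start site (minus meaning before it). Ifit3 held the same letters at -156 and -122, and Ifit3b at -188 and -154. The matches in the Ifit1bl2 window, at -70 and -51, are the same bases of the chromosome as those of Ifit1 read on the opposite strand, since both windows share 245 bases. The windows of Ifit3 and Ifit3b were 94.2% identical over 274 aligned positions, so the matches of this pair are not independent of each other. Neither of the 2 windows of Ifit2 held an ISRE match, and the window shown held TTCCTGGAA, a GAS match, at -241. A second window of Ifit1bl2, from a start site farther downstream, held no match to either motif. Of 32851 RefSeq promoter windows of this length, 3.44% held an ISRE match and 8.30% a GAS match. The motifs do not overlap one another in these windows. A match is a stretch of letters, and binding was not measured. Bases outside these windows and looser forms of either motif were not searched. Whether Ifit2 has an ISRE elsewhere was thus not tested.

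Ifit1 is the family's cap-sensing member. Its counts were 715, 765.18 and 709 in the IFN gamma libraries and 83, 88 and 73 in the Ctrl libraries. The lowest IFN gamma library stood far above the highest Ctrl library. Ifit1 averaged 26.5 ± 0.12 TPM (transcript abundance scaled for gene length and library) in IFN gamma cells and 3.00 ± 0.309 TPM in Ctrl cells (SD, n = 3 each). Its edgeR log2 change was 3.25 ± 0.0857 (SE), adjusted p = 1.07e-17. The 9.55-fold ratio of depth-scaled totals, taken like the others from rounded counts, had an exact 95% binomial interval of 8.36 to 10.9, which, like all intervals here, covers counting error only. Among genes ordered by TPM, Ifit1 stood at places 4836 to 4998 in the IFN gamma libraries and at 9629 to 9841 in the Ctrl libraries.

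Ifit2, known in human cells to promote apoptosis, had 1090, 1118 and 1028 counts in the IFN gamma libraries and 478, 552 and 468 in the Ctrl libraries. Every IFN gamma library was again above every Ctrl library, but by the least of the family. It averaged 25.2 ± 0.613 TPM in IFN gamma cells and 11.9 ± 1.45 TPM in Ctrl cells (SD, n = 3 each). The edgeR log2 change was 1.20 ± 0.0782, adjusted p = 4.67e-12, and the ratio of totals was 2.30 (2.16 to 2.45).

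Ifit3, whose human counterpart binds and stabilises IFIT1, had 412.34, 378.42 and 334.04 counts in the IFN gamma libraries and 19.58, 19.86 and 18.7 in the Ctrl libraries. The IFN gamma libraries were spread more widely than the Ctrl libraries, and the groups did not overlap. It averaged 18.7 ± 1.93 TPM in IFN gamma cells and 0.997 ± 0.0351 TPM in Ctrl cells (SD, n = 3 each). The edgeR log2 change was 4.33 ± 0.0693, adjusted p = 1.26e-16, and the ratio of totals was 20.3 (15.6 to 26.8).

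Ifit3b, a near copy of Ifit3, had 113.66, 119.58 and 100.96 counts in the IFN gamma libraries and 2.42, 3.14 and 3.3 in the Ctrl libraries. Its Ctrl level thus rests on about 3 counts a library. It averaged 5.47 ± 0.37 TPM in IFN gamma cells and 0.15 ± 0.0265 TPM in Ctrl cells (SD, n = 3 each). The edgeR log2 change was 5.41 ± 0.114, adjusted p = 1.79e-13, and the ratio of totals, 335 against 8 rounded counts, was 44.6 with a wide interval of 22.4 to 104.

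Ifit1bl2, an Ifit1-like gene, was the faintest member, with 17, 19.82 and 16 counts in the IFN gamma libraries and 1, 0 and 0 in the Ctrl libraries. The single Ctrl read was in replicate 2. Its level was 0.48, 0.53 and 0.48 TPM in the IFN gamma libraries, against 0.03, 0 and 0 TPM in the Ctrl libraries. The ratio of totals, 53 against 1 count after rounding, was 56.4 (9.69 to 2269). The tables analysed here hold 0 genes without a Ctrl read, so Ifit1bl2 would have no row but for this read. The interval does not allow for that. The edgeR log2 change of 5.36 ± 0.202 (adjusted p = 7.71e-07) depends on the small count edgeR adds before taking logarithms, and without Ctrl replicate 2, with the remaining Ctrl libraries at 0, it was 7.19, so it is no bound on the change. The standard errors of Ifit3b and Ifit1bl2, taken from replicate log2 values with a prior count of 2, can be too small at such counts.

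The neighbouring Ifit1bl1, too low for the test, had 6, 9 and 7 counts in the IFN gamma libraries and 1, 1 and 0 in the Ctrl libraries. Its ratio of totals, 22 against 2 counts, was 11.7 (2.88 to 103). Like Ifit1bl2, it would have no row without a Ctrl read, and the interval does not allow for that.

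**Figure D1:**
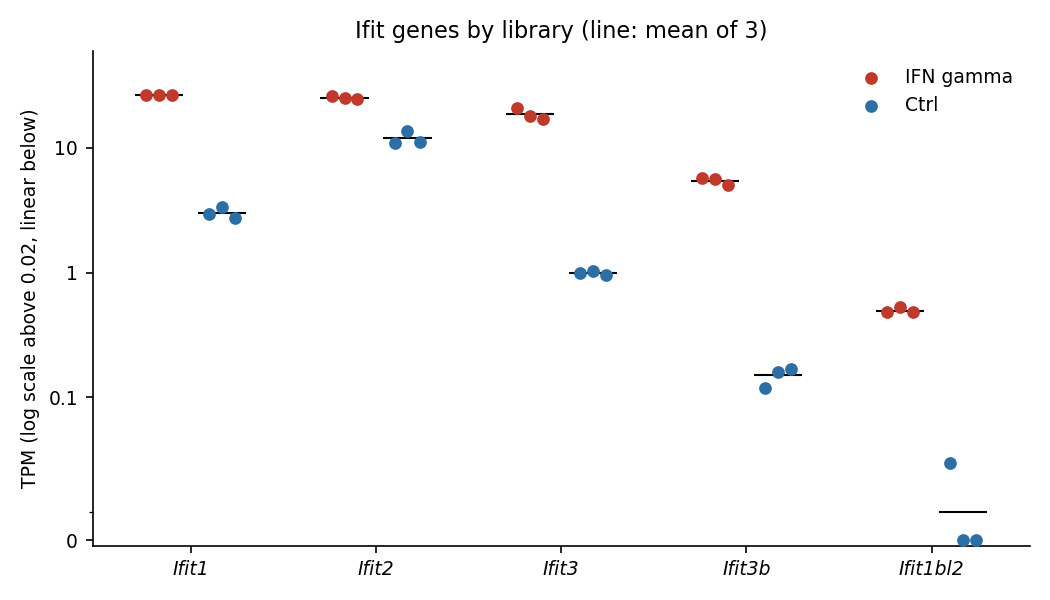
TPM of the 5 Ifit genes in each library (vertical axis, logarithmic above 0.02 and linear below), with IFN gamma in red to the left of Ctrl in blue and a line at each mean of 3. The IFN gamma libraries lie above the Ctrl libraries for every gene, with Ifit2 closest together and Ifit1bl2 at 0 TPM in 2 Ctrl libraries.

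Each of the 5 genes passed the test as higher in IFN gamma cells (edgeR's quasi-likelihood test, Benjamini-Hochberg adjusted p under 0.05), where 19.9% of the 11423 genes tested rose and 18.1% fell. Ifit1, Ifit2 and Ifit3 reached 10 counts in all 3 Ctrl libraries. Ifit3b and Ifit1bl2 did so in 0 Ctrl libraries and entered the test through the IFN gamma libraries alone, so these genes had to differ and their calls add nothing to the count. Ordered by log2 change from the top, Ifit3 stood at place 78 of the 11423, Ifit1 at 125 and Ifit2 at 381. The places of Ifit3b (47) and Ifit1bl2 (50) follow from the same filter and from few Ctrl counts, so they are not read as a result. The split of all calls into 2278 risen and 2069 fallen depended on scaling, with 1775 and 2823 under upper-quartile scaling and 1644 and 3124 under total counts. The members kept their direction and their call under each of these scalings.

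**Figure D2:**
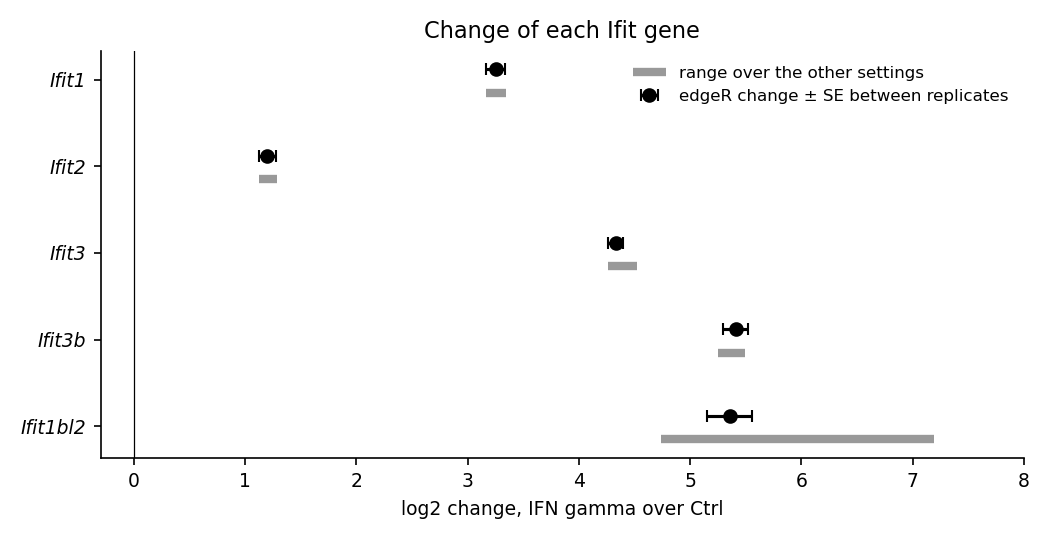
The log2 change of each Ifit gene, IFN gamma over Ctrl (horizontal axis), as black points for the edgeR change with SE bars from replicate log2 CPM, and grey bars for the lowest to highest value over the other settings and left-out libraries. Ifit2 is lowest at 1.20, and the bar of Ifit1bl2 reaches 7.19, the value without Ctrl replicate 2. The bar of Ifit3 reaches 4.53, the value of Ifit3 and Ifit3b summed.

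The genes rose by unequal amounts. Within each library, the log2 ratio of one member to another was compared between groups for 10 pairs, by an exact two-sided permutation test of 3 against 3 libraries, which cannot give a p under 0.1. Ifit1 gained 2.03 ± 0.0514 log2 units on Ifit2 (exact p = 0.1, adjusted over 10 pairs 0.111), and its ratio to Ifit2 was higher in each IFN gamma library than in any Ctrl library. Ifit3 gained 3.00 ± 0.0912 on Ifit2 and 0.97 ± 0.104 on Ifit1, each also with exact p = 0.1 and no overlap. Ifit3b gained 0.48 ± 0.133 on Ifit3 with a prior count of 2 and 0.94 with a prior count of 0.5, a difference that rests on few Ctrl counts. The comparisons of Ifit1bl2 with Ifit1 and Ifit3 changed sign with the prior count.

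The family's makeup differed accordingly. Summed over the 5 genes, the level was 79.32, 75.91 and 73.9 TPM in the IFN gamma libraries and 14.96, 18.07 and 15.09 TPM in the Ctrl libraries, a 4.76-fold difference of means. The groups stood apart, with exact two-sided permutation p = 0.1, the smallest that 3 against 3 allows. Ifit2 made up 33.0% ± 0.411 of the sum in IFN gamma cells and 74.0% ± 1.22 in Ctrl cells (SD, n = 3 each). Ifit1 made up 34.7% ± 1.34 in IFN gamma cells and 18.7% ± 0.847 in Ctrl cells. Ifit3 made up 24.5% ± 1.64 in IFN gamma cells and 6.25% ± 0.502 in Ctrl cells. Ifit3b held 7.15% ± 0.319 in IFN gamma cells and 0.938% ± 0.168 in Ctrl cells. Shares of Ifit1bl2 stayed under those of the other genes, at 0.651% ± 0.0465 in IFN gamma cells and 0.0668% ± 0.116 in Ctrl cells. All 5 shares had exact p = 0.1, before and after adjustment over the 5. The shares of a library make up a fixed whole, so the 5 tests are not independent of one another. Those of Ifit3b and Ifit1bl2 rest on few Ctrl counts and add nothing to the others.

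By TPM the order in IFN gamma cells was Ifit1, Ifit2, Ifit3, Ifit3b and Ifit1bl2, and in Ctrl cells it was Ifit2, Ifit1, Ifit3, Ifit3b and Ifit1bl2. No neighbours in either order overlapped over the 3 libraries. The closest were Ifit1 and Ifit2 in IFN gamma cells, at 26.37 to 26.61 TPM and 24.7 to 25.87 TPM. Their order depends on the scaling for length. In CPM, which is not scaled for length, Ifit2 (mean 60.9) stood above Ifit1 (mean 41.2) in IFN gamma cells.

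**Figure D3:**
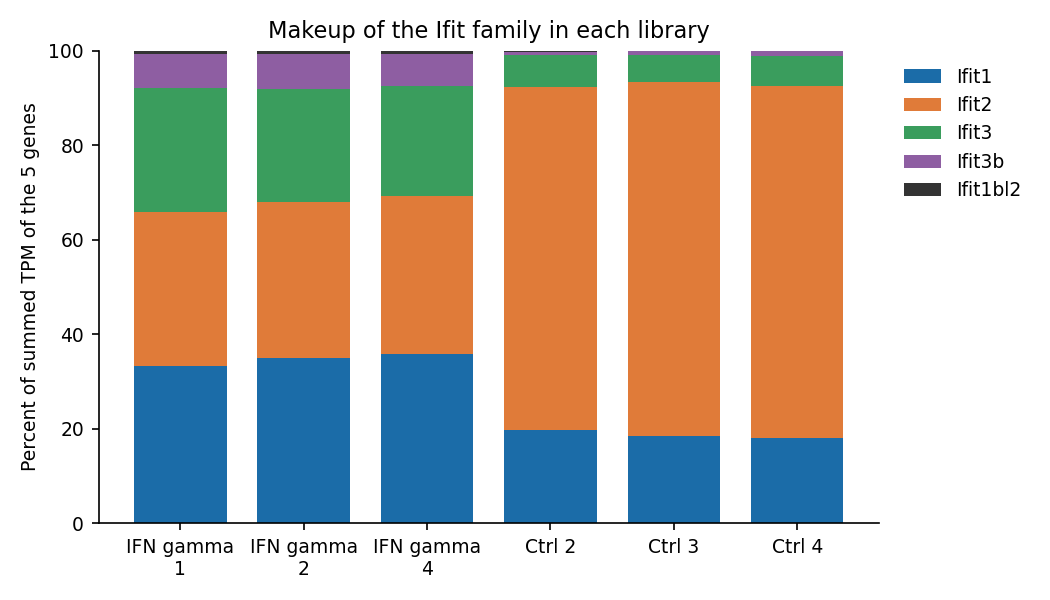
Percent of the summed TPM of the 5 Ifit genes taken by each gene (stacked bars), in 3 IFN gamma libraries on the left and 3 Ctrl libraries on the right. Ifit2 takes 33.0% on average in IFN gamma cells and 74.0% in Ctrl cells.

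The counts of Ifit3 and Ifit3b were not whole numbers in any library, but their sum was whole (within 0.005) in all 6. Together they had 526, 498 and 435 counts in the IFN gamma libraries and 22, 23 and 22 in the Ctrl libraries. The coding sequences differ at 11 of 1212 positions (99.1% identity), and 31.7% of the 100-base windows of the Ifit3 transcript recur in Ifit3b. Ifit3b was given 21.6%, 24.0% and 23.2% of the pair's counts in the IFN gamma libraries and 11%, 13.7% and 15% in the Ctrl libraries. No source used here says how the counting program divided shared reads, so the separate levels of the pair are uncertain and the sum is the firmer value.

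Ifit1 and Ifit1bl2 were both not whole in IFN gamma replicate 2 alone, where their sum of 785 was whole. They share 73.9% of coding positions, and 3.29% of the 100-base windows of Ifit1 recur in Ifit1bl2. Ifit2 shared no window of 100 bases with the other genes, and its counts were whole in all 6 libraries.

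Within 500 kb of the cluster, 6 other genes were tested, of which 2 rose and 0 fell (19.9% and 18.1% over all genes tested). Their median log2 change was 0.02 beside 0.01 over all genes tested. Fas, the death receptor, rose by 3.32 ± 0.0786 on the log2 scale (55.2 CPM in IFN gamma cells and 5.52 CPM in Ctrl cells, edgeR adjusted p = 2.66e-18, CPM on effective library size). Lipa, the lysosomal acid lipase, rose by 0.41 ± 0.0458 (38.4 CPM in IFN gamma cells and 28.8 CPM in Ctrl cells, adjusted p = 2.6e-05). Both calls held under every alternative run for the members. Stambpl1, a deubiquitinase, changed by 0.09 (adjusted p = 0.336), Acta2, smooth muscle actin, by -0.07 (0.319), Pank1, a pantothenate kinase, by -0.08 (0.569) and Kif20b, a mitotic kinesin, by -0.06 (0.46), none past the threshold. Under total counts Acta2 passed as lower.

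**Figure D4:**
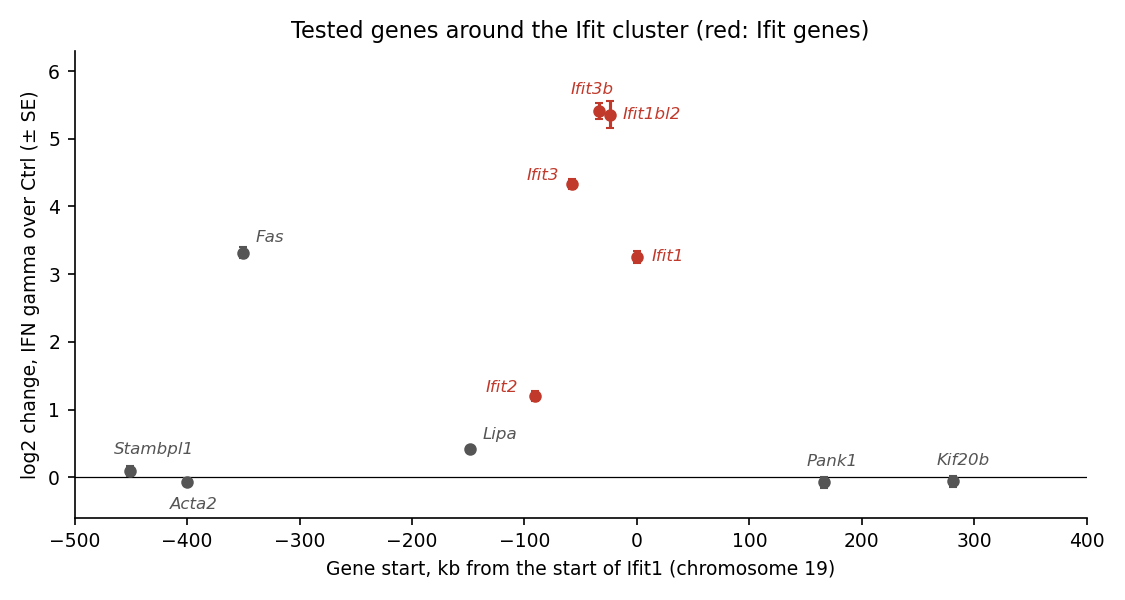
The log2 change, IFN gamma over Ctrl (vertical axis, bars SE), of each tested gene against the distance of its start from that of Ifit1 in kb (horizontal axis), with Ifit genes in red and others in grey. The 5 Ifit genes lie from 1.20 to 5.41, Fas at 3.32, Lipa at 0.41 and the remaining 4 near 0.

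For each member the 3 other tested genes of most like pattern were taken by the Euclidean distance between log2 CPM (prior count 2), centred on each gene's mean over the 6 libraries. For Ifit1 they were Fas (distance 0.128), Tvp23a (0.195) and Ube2l6 (0.197). For Ifit2 they were Katna1 (0.139), B4galt1 (0.141) and Steap1 (0.152). Those of Ifit3 were Rtp4 (0.238), Tap2 (0.268) and Psmb8 (0.292), and of Ifit3b they were Ly6c1 (0.317), Irgm1 (0.454) and Parp9 (0.494). For Ifit1bl2, Idnk (0.215), Hdc (0.316) and Eif4e3 (0.329) came out, although Idnk had an edgeR log2 change of 3.04 against 5.36 for Ifit1bl2. On the scale of the distance, log2 CPM with a prior count of 2, Idnk differed by 3.02 and Ifit1bl2 by 3.14 between the group means. With 2 groups the distance reflects mostly the size of the change.

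Of the ISGF3 and Irf regulators that act at the ISRE, 6 of 7 tested and reported here rose and 0 fell. Over all genes tested, 19.9% rose and 18.1% fell. The regulators had a median log2 change of 2.98. All 7 had 10 counts or more in every Ctrl library, and Ifit1, Ifit2 and Ifit3, the Ifit genes with such counts, had a median of 3.25. Stat2 rose by 3.76 ± 0.0626 (edgeR adjusted p = 1.98e-21) and averaged 72.7 ± 3.62 TPM in IFN gamma cells and 5.80 ± 0.459 TPM in Ctrl cells (SD, n = 3 each). Irf9, its partner in ISGF3, rose by 2.98 ± 0.0799. Irf1 rose by 3.58 ± 0.0484 and averaged 929 ± 12.5 TPM in IFN gamma cells and 84.0 ± 2.42 TPM in Ctrl cells. Irf7, the amplifier of interferon genes, rose by 4.93, Irf2 by 1.08 and Irf5 by 0.48. Irf3, which is activated by phosphorylation, had a log2 change of 0.04 (adjusted p = 0.684). Irf8 had no row, so its change was not analysed here.

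Among 8 interferon genes (Ifnb1, Ifna1, Ifna2, Ifna4, Ifna5, Ifnl2, Ifnl3 and Ifng), Ifna1 alone had a row, with 0 counts over the IFN gamma libraries and 1 over the Ctrl libraries. The tables analysed here hold 673 genes at 0 in every IFN gamma library and 0 genes at 0 in every Ctrl library, so a gene read in IFN gamma cells alone would have no row. Whether interferon genes were expressed in IFN gamma cells was thus not analysed here. Of the receptor chains, 1 of 5 tested rose and 3 fell, beside 19.9% and 18.1% of all genes tested. Ifnar2, a chain of the type I receptor, rose by 1.11 ± 0.0726 (adjusted p = 3.22e-12), while Ifnar1 had -0.11 (0.139). Both chains of the IFN gamma receptor fell, Ifngr1 by 0.24 ± 0.0757 (adjusted p = 0.00444) and Ifngr2 by 0.33 ± 0.0373 (3.87e-05), in every setting run. Under upper-quartile scaling and total counts, 4 chains fell. Il10rb, a chain of the lambda receptor, fell by 0.19 (adjusted p = 0.0359), a call lost with the replicate block, with DESeq2 and without IFN gamma replicate 2, Ctrl replicate 3 or Ctrl replicate 4 (adjusted p up to 0.212). Ifnlr1 was too low to test.

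Of 6 tested genes that make or methylate the RNA cap read by Ifit1, 1 rose and 2 fell. The shares over all genes tested were 19.9% and 18.1%. The median log2 change of the 6 was 0.04. Cmtr1, the methyltransferase of the first nucleotide's ribose, rose by 0.52 ± 0.0348 (edgeR adjusted p = 2.85e-08), while Cmtr2, which methylates the next ribose, fell by 0.41 ± 0.035 (5.3e-05) and Rnmt, the cap guanine methyltransferase, by 0.33 ± 0.0692 (0.000495). Rngtt, the capping enzyme, had 0.16 (0.0609) and passed without IFN gamma replicate 2. Ramac (0.06, adjusted p = 0.661) and Pcif1 (0.01, 0.869) did not pass.

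Of 14 subunits of eIF3, the Ifit-binding initiation factor, 0 rose and 2 fell, where 19.9% and 18.1% of all genes tested did. Their median log2 change was -0.02. Eif3a fell by 0.18 ± 0.00829 (edgeR adjusted p = 0.00444) in every setting run. Eif3j2 fell by 0.18 ± 0.081 (0.0213), a call lost with the replicate block and without IFN gamma replicate 1, IFN gamma replicate 2, Ctrl replicate 3 or Ctrl replicate 4 (adjusted p up to 0.245). The count that fell was 6 under total counts, 4 under upper-quartile scaling or without IFN gamma replicate 4, and 1 with the replicate block or without IFN gamma replicate 2 or Ctrl replicate 3. Eif3k rose without IFN gamma replicate 4, and Eif3i, named after its values were seen, without Ctrl replicate 2. Eif3g (-0.14, adjusted p = 0.051) and Eif3k (0.14, 0.0611) lay near the threshold, and Eif3h (0.00014, 0.998), Eif3f (0.01, 0.96), Eif3m (0.00457, 0.958) and Eif3e (0.03, 0.788) far from it.

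Of 9 nucleic acid sensors and adaptors, 5 rose and 2 fell, against 19.9% and 18.1% of all genes tested. The RNA helicases Ifih1, Dhx58 and Ddx58 rose by 2.65 ± 0.0935, 2.05 ± 0.116 and 1.96 ± 0.0282, and Tmem173, the adaptor STING, by 2.05 ± 0.0629 on the log2 scale. The kinase Tbk1 rose by 0.34, and Mavs, the mitochondrial adaptor of the helicases, and Traf3 fell by 0.24 and 0.28 (edgeR adjusted p = 0.000182, 0.00401 and 0.000405). Ikbke (0.04, adjusted p = 0.794) and Traf6 (0.12, 0.19) did not pass.

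Other genes known to be induced by type I interferon gave 15 of 16 tested that rose and 0 that fell, with a median log2 change of 3.98, where 19.9% of all genes tested rose. Of these 16, Oas1a, Oas2, Oas3, Ifi44 and Zbp1 were under 10 counts in every Ctrl library and, like Ifit3b and Ifit1bl2, could be tested only by being higher in IFN gamma cells. Among the 10 genes with 10 counts or more in every Ctrl library, 9 rose and 0 fell, with a median of 2.45. The smallest adjusted p-values were those of Oasl2 (log2 change 5.20), Zbp1 (7.60), Xaf1 (5.13) and Rtp4 (4.16). The largest were those of Ifi27 (0.99, 3.01e-10 in edgeR), Oas1a (4.58, 1.81e-08), Oas3 (3.79, 1.86e-07) and Oasl1. Oasl1, an inhibitor of Irf7 translation in mouse, had 86 counts over the IFN gamma libraries and 92 over the Ctrl libraries, a log2 change of -0.01 (adjusted p = 0.982). Mx1 and Mx2, the dynamin-like antiviral GTPases, had no row, so, as for the interferon genes, their expression in IFN gamma cells was not analysed here. The lists were chosen with earlier results of these data known, and their counts are descriptions.

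**Figure D5:**
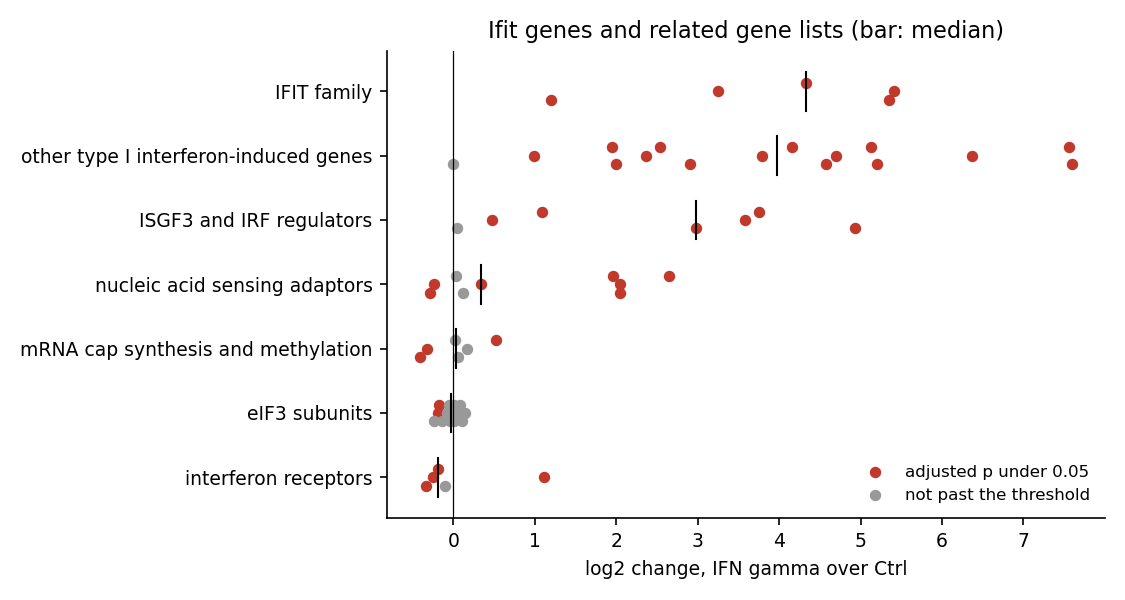
The log2 change, IFN gamma over Ctrl (horizontal axis), of each tested gene in 7 lists, in red where the edgeR adjusted p was under 0.05 and in grey otherwise, with a bar at each list's median. The medians are 4.33 for the Ifit genes and 3.98 for other interferon-induced genes (3.25 and 2.45 over those with 10 counts or more in every Ctrl library) and 2.98 for ISGF3 and Irf regulators, to the right of the capping, eIF3 and receptor genes.

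Depth was even, at 17490689 to 18678543 counts a library, of which the Ifit genes took 125.1 to 128.5 CPM (on library totals) in the IFN gamma libraries and 30.7 to 36.3 CPM in the Ctrl libraries. Of 10 epithelial markers 7 had a row and none could be tested, with summed levels of 0.64 to 0.91 TPM in the IFN gamma libraries and 0.82 to 1.22 TPM in the Ctrl libraries. Epcam, Cdx2 and Cldn7 had no row, so the labelled cell type was not borne out by its defining markers. Mesenchymal markers (7 of 8 with a row) summed to 3425 to 3612 TPM in the IFN gamma libraries and 3284 to 3461 TPM in the Ctrl libraries, most of it Vim. Of these 7, Vim and Dcn rose (log2 change 0.30 and 0.87), while Col1a1 (-0.33), Col1a2 (-0.20), Col3a1 (-0.42), Pdgfra (-0.65) and Pdgfrb (-0.60) fell, in edgeR and every alternative run. Leukocyte markers (4 of 8 with a row) summed to 23.3 to 24.4 TPM in the IFN gamma libraries and 26.6 to 31.8 TPM in the Ctrl libraries, and endothelial ones (2 of 3) summed to at most 0.27 TPM. The part of these levels in the Ifit results was not tested.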

How the data were processed

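The 6 libraries of IEC 4.1 (3 IFN gamma, 3 Ctrl) were made for the DNBSEQ platform, per the labels. The submitters' processing notes list the builds mm10 and GRCm38.p6 and the aligners HISAT and HISAT2 with no role. No source used here states the counting program. Each library had 1 table of 14701 genes. Read counts were deposited as estimated counts, 6.8% to 7.37% of them not whole. TPM and FPKM values were deposited beside them, per the file headers, and FPKM served only as an alternative to TPM for the family's sum and shares. Value columns of other samples numbered 0.

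After rounding, counts went to edgeR 4.0.16 under R 4.3.3 (filterByExpr with a minimum count of 10, TMM, glmQLFit with robust=TRUE, glmQLFTest), with Benjamini-Hochberg adjustment over 11423 genes and a threshold of 0.05. Standard errors came from replicate log2 CPM with a prior count of 2. Single values were tested by exact permutation of libraries. Ratios of totals carry exact 95% binomial intervals, which cover counting error only. The fit was tested on simulated data with known changes. These were smaller than the changes of Ifit1, Ifit3, Ifit3b and Ifit1bl2, so changes of that size were not covered. Of 14701 genes, 14654 were matched by identifier to RefSeq on GRCm38.p6. Transcripts came from GENCODE M21 on the same build. Proteins were not used here.

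Alternatives were scaling by RLE, by upper quartile or by total counts, no filter, at least 1 CPM in 3 libraries, DESeq2 1.42.0, limma-voom 3.58.1, robust=FALSE, rounding down, similar members summed, the replicate number as a block, other prior counts and each library left out. For list and neighbour genes they were chosen after seeing the data. The members and lists were chosen with earlier results of these data known, and 1 list gene is not reported here. Named were all members, all genes with a row within 500 kb, all genes of lists of 9 or fewer and up to 4 of smallest and 4 of largest adjusted p in longer lists, and 3 genes of most like pattern per member. Other software was Python 3.11.15 with Biopython 1.88, scipy 1.17.1, numpy 2.4.6, matplotlib 3.10.9 and pandas 2.3.3.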

Additional observations from a re-analysis of the deposited data

How the results depend on the processing

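Over the alternatives run, the log2 change was 3.17 to 3.34 for Ifit1, 1.13 to 1.28 for Ifit2 and 4.26 to 4.41 for Ifit3. It was 5.25 to 5.50 for Ifit3b and 4.74 to 7.19 for Ifit1bl2. Each member was past the threshold wherever it was tested. Ifit3b and Ifit1bl2 passed the main filter through the IFN gamma libraries alone, so their calls add nothing here. Ifit1bl2 gave no value with the filter of at least 1 CPM in 3 libraries, which left 4 members called. With similar members summed there were 3 features to test and all 3 were called. Ifit3 and Ifit3b together, left out of the range given for Ifit3, had a log2 change of 4.53. The log2 gain of Ifit1 over Ifit1bl2, 0.08 with a prior count of 2, was -1.45 with a prior count of 0.5 and ranged from -0.089 (without Ctrl replicate 2) to 0.24 over left-out libraries. That of Ifit3 over Ifit1bl2, 1.06, was -0.40 with a prior count of 0.5. Ifit1bl2 had 1, 0 and 0 counts in the Ctrl libraries, where its log2 value is set mostly by the prior count. The total of genes called, 4347, ranged from 3649 to 4768.

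Replicate numbers 2 and 4 occur in both groups, and the deviations of same-numbered libraries correlated at 0.128 and -0.0899, so the numbers were not taken to pair the libraries. With the replicate block the log2 change was 3.34 for Ifit1, 1.28 for Ifit2, 4.28 for Ifit3, 5.50 for Ifit3b and 4.95 for Ifit1bl2. All were still past the threshold. Number 1 occurs in IFN gamma cells alone and number 3 in Ctrl cells alone. The blocked fit thus takes the change from the libraries numbered 2 and 4 only. Depth limits Ifit3b and Ifit1bl2 in Ctrl cells, where they had 8.86 and 1 counts in all.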
